A study of Tetranychus urticae with 4 samples.

Results

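The 8 genes described here are the intradiol ring-cleavage dioxygenases of the spider mite Tetranychus urticae whose identifiers place them on scaffolds 12, 13, 19, 20, 28 and 44. They were chosen by identifier, and all 8 were found among the 18020 genes of the deposited count table. Intradiol dioxygenases are iron enzymes that open the aromatic ring of a catechol between its adjacent hydroxyl groups. They are best known from bacteria and fungi, and spider mites are known to have acquired theirs by horizontal transfer and to carry several copies. In this mite the enzymes are known to cleave plant catechols, a class of phenolic compounds that a leaf feeder meets in its food. The deposited files list identifiers without names, so membership of the family was taken from the selection and was not checked against sequence. No role beyond that of the family is given here for a single copy.

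Proterosoma and whole-body samples were sequenced, both from adult females of the London strain, a laboratory strain. The dissected proterosoma is the front of the body, with the mouthparts and salivary glands among other tissues. Proterosomas of 250 females were pooled into 1 library, called the proterosoma here. It was set against 3 libraries of intact whole bodies, each pooled from 100 females. By its title, the study sought genes whose expression is enriched in salivary glands. The sources used here give neither age within adulthood, nor host plant, nor whether cultures were separate, so p-values measure the spread between the whole-body libraries, which may be technical. An intact body contains its proterosoma, so the groups are a part and the whole that holds it. Neither the files nor the gene table used here names a marker gene, and the dissection was therefore not checked against markers.

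The proterosoma held 19667380 counts, and whole-body replicates 1, 2 and 3 held 23647775, 12356237 and 11630954. Levels are given as CPM, read counts per common library size set by TMM (edgeR's trimmed mean of M-values). On that scale 1 read equals 0.0684 CPM in the proterosoma and 0.0370 to 0.0802 CPM in whole-body libraries. Gene lengths were not used, so CPM compares 1 gene between libraries and does not rank genes by transcript number. In bulk RNA, fewer cells of a type and less RNA per cell cannot be told apart.

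The 8 genes did not move together between front and whole body. In the proterosoma 2 were higher, 5 were lower and 1 did not pass the test (edgeR quasi-likelihood test, Benjamini-Hochberg adjusted p under 0.05 over 13278 genes). Of all tested genes, 81.4% were called in either direction, 41.0% higher and 40.4% lower, so a call alone says little about these genes. The log2 folds of proterosoma over whole body ran from -3.83 for tetur28g01250 to 5.48 for tetur20g01160. Their median was -1.25, beside a median of -0.029 over all tested genes. For 7 of the 8 genes the proterosoma value was above or below all 3 whole-body values, as it was for 94.4% of tested genes.

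**Figure D1:**
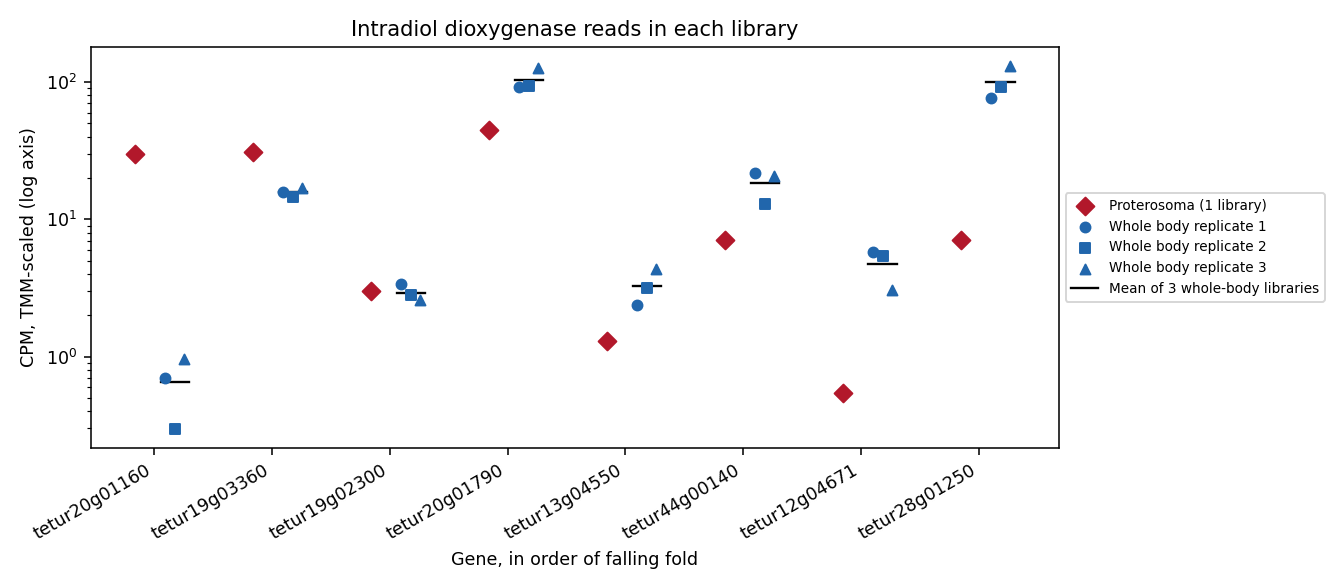
CPM of the 8 genes (log axis) in the proterosoma (red diamonds) and in whole-body replicates 1, 2 and 3 (blue), with the whole-body mean as a line, genes in order of falling fold. For tetur20g01160 the proterosoma value of 29.7 CPM stands far above whole-body values of 0.295 to 0.962 CPM, and for tetur28g01250 the order is turned round.

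The gene tetur20g01160 was the one with high reads in the front body and almost none in the whole. It had 434 reads in the proterosoma, against 19, 4 and 12 reads in whole-body replicates 1, 2 and 3. As CPM this was 29.7 in the proterosoma and 0.704, 0.295 and 0.962 in the whole-body libraries. The groups were far apart: the proterosoma value was 30.9 times the highest and 100.6 times the lowest whole-body value. The fitted log2 fold was 5.48 (standard error, SE, 0.30), a 44.6-fold difference (edgeR adjusted p = 1.21e-05). With the whole-body reads summed, counting error alone left a ratio between 31.8 and 65.4 (exact 95% interval), which covers neither animals nor library preparation. A higher fold was found for 1.97% of the tested genes. By CPM, uncorrected for gene length, the gene stood above 61.6% of tested genes in the proterosoma. In whole bodies it stood above 4.13% to 13.2% of them.

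The other gene that rose, tetur19g03360, did so by a smaller step and with close whole-body values. It had 451 reads in the proterosoma, against 430, 198 and 211 reads in whole-body replicates 1, 2 and 3. These counts correspond to 30.8 CPM in the proterosoma and to 15.9, 14.6 and 16.9 CPM in whole bodies. The groups did not overlap, with the proterosoma value 1.82 times the highest whole-body value. The log2 fold was 0.96 (SE 0.12), or 1.95-fold (edgeR adjusted p = 0.000451). Among tested genes 32.4% had a higher fold. Tested against a 2-fold change, the difference was not called (glmTreat adjusted p = 0.524). By that stricter rule 1 of the 8 genes was higher and 2 were lower, where 28.1% of all tested genes were higher and 25.0% lower.

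On the same scaffold, tetur19g02300 was not called. It had 3.01 CPM in the proterosoma and 3.37, 2.80 and 2.57 CPM in whole-body replicates 1, 2 and 3. The proterosoma value lay inside the whole-body range, from 44 reads against 91, 38 and 32. The log2 fold was 0.020 (SE 0.27; edgeR adjusted p = 0.948), and its sign changed with library size alone, with the filter of at least 1 count and when whole-body replicate 2 or 3 was left out, but not under the other scalings, filter and tests tried. Counting error alone allowed a ratio from 0.693 to 1.39 (exact 95% interval). That interval leaves out the spread between libraries, so a difference within these bounds, or beyond them, may have been missed.

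Of the 5 genes that fell in the front body, tetur28g01250 fell furthest. It had 103 reads in the proterosoma, against 2080, 1255 and 1645 reads in whole-body replicates 1, 2 and 3. As CPM these were 7.05 in the proterosoma and 77.0, 92.5 and 131.9 in whole bodies. The lowest whole-body library was thus still far above the proterosoma, which reached 0.0914 of its value. The log2 fold was -3.83 (SE 0.40), and the fitted whole-body level was 14.2 times that of the proterosoma (edgeR adjusted p = 0.000215). A lower fold was found for 6.79% of tested genes.

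The gene tetur12g04671 also fell steeply, on few reads. It had 8 reads in the proterosoma, against 157, 73 and 38 in whole-body replicates 1, 2 and 3. In CPM it had 0.547 in the proterosoma and 5.82, 5.38 and 3.05 in whole bodies. The groups did not overlap, and replicate 3 was the whole-body library nearest to the proterosoma value. The log2 fold was -3.13 (SE 0.58; edgeR adjusted p = 0.00296). Because of the 8 proterosoma reads, counting error alone left a whole-body to proterosoma ratio anywhere from 4.62 to 21.6 (exact 95% interval). It was also the only one of the 8 genes that passed the expression filter, of about 0.625 CPM by library size, through the whole-body libraries alone; the other 7 reached it in the proterosoma as well.

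The other 3 lower genes had log2 folds from -1.22 to -1.39. The gene tetur20g01790, which collected the most reads of the 8, had 44.5 CPM in the proterosoma and 91.9, 93.3 and 125.6 CPM in whole-body replicates 1, 2 and 3. Its reads numbered 650 in the proterosoma, against 2481, 1266 and 1566 in whole bodies, and its log2 fold was -1.22 (SE 0.21; edgeR adjusted p = 0.00201). The gap to the nearest whole-body library was wide, at 0.484 of its value, but it was not called against a 2-fold change (glmTreat adjusted p = 0.100).

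The gene tetur44g00140 had 7.11 CPM in the proterosoma and 21.6, 13.0 and 20.8 CPM in whole-body replicates 1, 2 and 3. The proterosoma was below each of them, and replicate 2 stood apart from the other whole-body libraries on the low side. Its log2 fold was -1.39 (SE 0.34), on 104 reads in the proterosoma and 584, 176 and 260 in whole bodies (edgeR adjusted p = 0.00922), and it too was not called against a 2-fold change (glmTreat adjusted p = 0.0975).

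The least secure of the calls was that of tetur13g04550, with 1.30 CPM in the proterosoma and 2.37, 3.17 and 4.33 CPM in whole-body replicates 1, 2 and 3. The groups did not overlap, but these are 19 reads against 64, 43 and 54. The log2 fold was -1.29 (SE 0.46; edgeR adjusted p = 0.0408). The call was lost with the DESeq2 Wald test (adjusted p = 0.0605), with limma-voom (adjusted p = 0.0796) and against a 2-fold change (glmTreat adjusted p = 0.221).

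**Figure D2:**
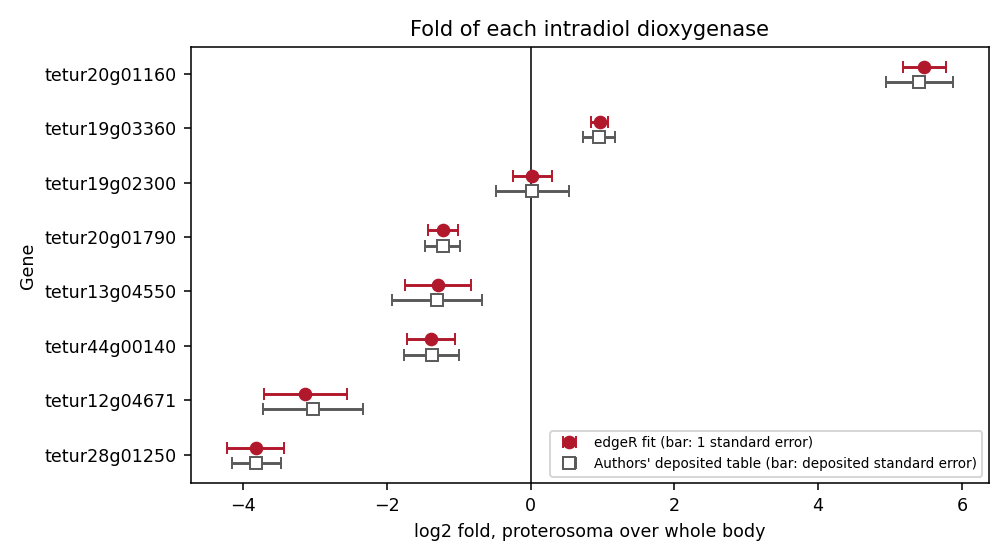
Log2 fold of each gene, proterosoma over whole body, from the edgeR fit (red circles, bars of 1 standard error) and from the authors' deposited table (open squares, bars of the deposited standard error). The folds run from 5.48 to -3.83, and the largest gap between the estimates for a gene is 0.10.

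In the authors' deposited table of their own comparison, 2 of the 8 genes were higher, 4 were lower and 2 were not called at an adjusted p under 0.05, where 30.7% of the 15877 genes listed were higher and 30.9% lower. The header of the authors' deposited table does not name the numerator; for 100% of the 9842 genes with an absolute log2 fold of at least 1, its sign matched the counts when the proterosoma was taken as numerator. The call differed for tetur13g04550, which the authors' deposited table gave at a log2 fold of -1.30 (error 0.62) and an adjusted p of 0.0582. For tetur20g01160 the authors' deposited table gave 5.41 (error 0.47), and for tetur28g01250 it gave -3.82 (error 0.33). These values come from the same 4 libraries and are no separate evidence.

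**Figure D3:**
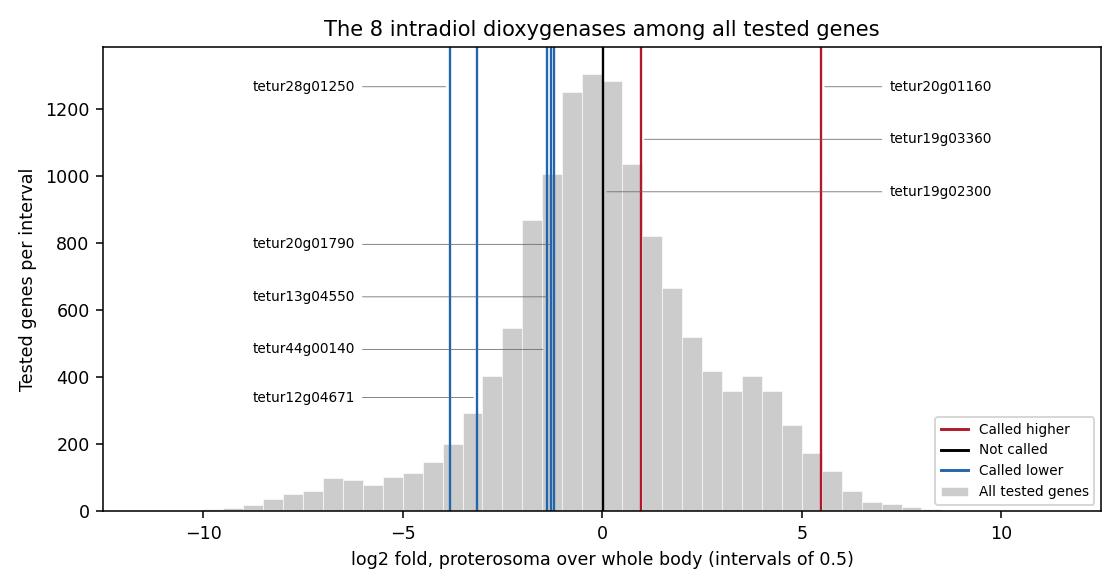
Number of tested genes per interval of 0.5 in log2 fold, proterosoma over whole body (grey), with the 8 genes as lines coloured by call. The 3 lower genes near -1.3 lie within the bulk of all genes, while tetur20g01160 at 5.48 and tetur28g01250 at -3.83 lie towards the ends.

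The folds depend on the scaling of a library in which most genes differ. With library size alone, the folds of all tested genes moved by a median of -0.57 on the log2 scale, and the share of all calls that were higher was 37.5%, against 50.4% with TMM. With that scaling 4149 of all 13278 tested genes were called higher and 6928 lower. The 2 higher and 5 lower genes kept their calls and directions, which says little beside those counts. With library size alone tetur19g03360 had a log2 fold of 0.39 (edgeR adjusted p = 0.0294) and tetur20g01160 one of 4.90. Ratios of counts between genes of 1 library do not depend on the scaling. The count of tetur20g01160 was 0.668 of that of tetur20g01790, from the same scaffold, in the proterosoma, against 0.00766, 0.00316 and 0.00766 in whole-body replicates 1, 2 and 3. The groups were apart by a wide margin for this pair, although the whole-body ratios rest on 19, 4 and 12 reads of tetur20g01160. For the pair on scaffold 19, tetur19g03360 had 10.25 reads per read of tetur19g02300 in the proterosoma, against 4.73, 5.21 and 6.59 in whole bodies. Here too the proterosoma ratio was the highest of the 4, on 44 proterosoma reads of tetur19g02300 and 91, 38 and 32 in whole bodies. In both pairs the gene with the higher fold was put over the other, which all but fixes this direction.

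With the 8 genes ordered by fold, 7 pairs stand next to each other. For 5 of these pairs the proterosoma count ratio was above all 3 whole-body ratios, a direction that the order by fold all but fixes. It lay inside for the other 2 pairs, tetur20g01790 with tetur13g04550 and tetur13g04550 with tetur44g00140, whose order by fold was therefore not resolved. For tetur12g04671 over tetur28g01250 the proterosoma ratio was 0.0777, against 0.0755, 0.0582 and 0.0231 in whole bodies. That is barely outside the range and rests on the 8 proterosoma reads of tetur12g04671. No test was made of these ratios.

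Summed over the 8 genes, the front body had fewer of these reads. The genes took 1813 reads in the proterosoma, against 5906, 3053 and 3818 reads in whole-body replicates 1, 2 and 3. Their summed level was 124.0 CPM in the proterosoma and 250.0 ± 48.7 CPM in whole bodies (SD, n = 3). All 3 whole-body sums, at 218.8, 225.1 and 306.1 CPM, were above that of the proterosoma. With library size alone the log2 ratio of the sums was -1.58, against -1.01 with TMM.

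**Figure D4:**
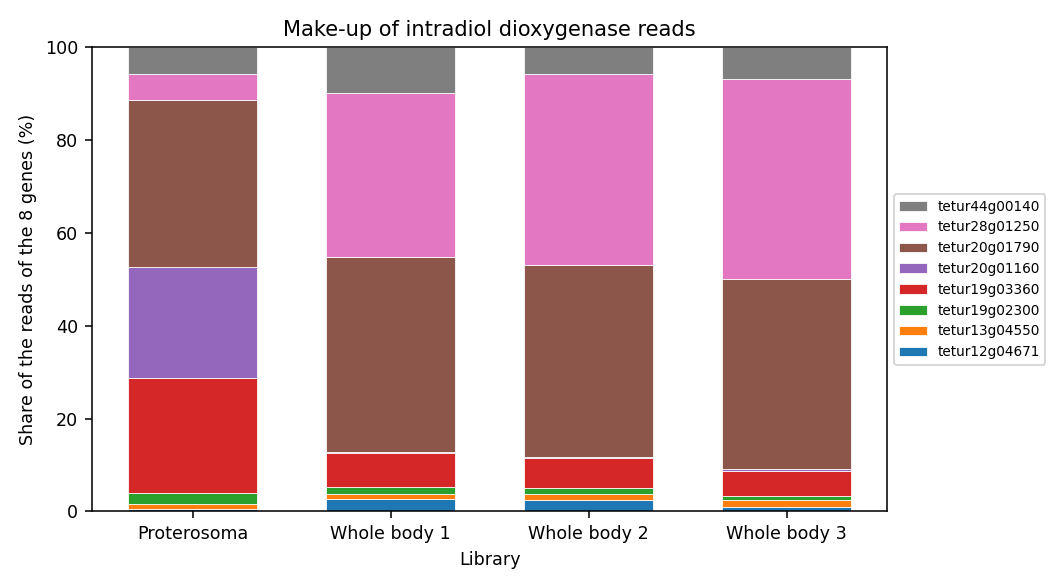
Share of the reads of the 8 genes that each gene took (%), in the proterosoma and in whole-body replicates 1, 2 and 3. The share of tetur20g01160 is 23.9% in the proterosoma and 0.131% to 0.322% in whole bodies, while that of tetur28g01250 is 5.68% in the proterosoma and 35.2% to 43.1% in whole bodies.

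The make-up of these reads also differed between the body parts. In the proterosoma tetur20g01790 took 35.9%, tetur19g03360 24.9% and tetur20g01160 23.9% of them. In whole bodies tetur20g01790 took 41.5% ± 0.497, tetur19g03360 6.43% ± 0.878 and tetur20g01160 0.256% ± 0.108 (SD, n = 3). The share of tetur28g01250 was 5.68% in the proterosoma and 39.8% ± 4.09 in whole bodies (SD, n = 3). The genes tetur20g01790 and tetur28g01250 together, a pair singled out after their values were seen, took 41.5% of these reads in the proterosoma, against 77.2% to 84.1% in whole-body libraries. They summed to 51.5 CPM in the proterosoma and 204.1 ± 47.0 CPM in whole bodies (SD, n = 3). The other 6 genes summed to 72.5 CPM in the proterosoma and 45.9 ± 5.81 CPM in whole bodies (SD, n = 3). Among these 6, only tetur20g01160 and tetur19g03360 were called higher. They had 29.7 and 30.8 CPM in the proterosoma, against means of 0.654 and 15.8 CPM in whole bodies. The genes tetur12g04671, tetur13g04550 and tetur44g00140 were called lower, and tetur19g02300 was not called. Shares of reads are not shares of transcripts, since longer genes collect more reads.

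Most of the 8 genes varied among the whole-body libraries by more than the median gene. The coefficient of variation of CPM over the 3 libraries had a median of 27.0% for the 8 genes, beside 8.63% for all tested genes; no test was made, and genes with few reads vary more by counting. Without replicate 3 these medians were 13.0% and 6.10%. The coefficient was lowest for tetur19g03360, at 7.35%, and next for tetur19g02300, at 14.2%. For both it was close to what counting alone gives, 6.35% and 15.1%. For tetur28g01250 it was 28.1%, where counting alone gives 2.51%, and for tetur20g01790 it was 18.4%, where counting alone gives 2.47%. These 2 genes were both highest in replicate 3. Without that library the coefficient was 12.9% for tetur28g01250 and 1.11% for tetur20g01790, so the spread of tetur20g01790 rests on replicate 3. The value of tetur20g01160, 51.5%, rests on 4 to 19 reads a library, for which counting alone gives 35.9%, and was 21.9% without replicate 2.

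**Figure D5:**
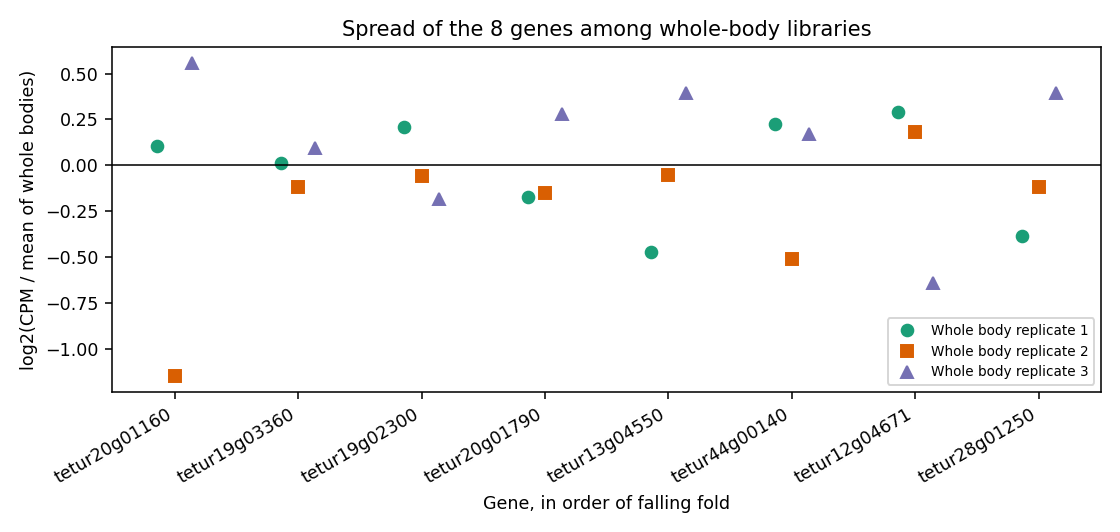
Log2 of CPM over the whole-body mean for each gene in whole-body replicates 1, 2 and 3. Replicate 3 is the highest library for 5 of the 8 genes but the lowest for tetur12g04671 and tetur19g02300, and replicate 2 is at -1.15 for tetur20g01160.

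No single whole-body library was high or low for the whole group. Replicate 3 was highest for 5 genes and lowest for 2, replicate 1 highest for 3 and lowest for 3, and replicate 2 highest for 0 and lowest for 3. The gene tetur12g04671 was highest in replicate 1 and lowest in replicate 3, a 1.91-fold range. For tetur28g01250 replicate 3 was highest and replicate 1 lowest, a 1.71-fold range. The same lone proterosoma library was in each of the 3 fits that left out 1 whole-body library in turn. The 2 higher and 5 lower genes kept the direction of their folds in all 3 fits. The median shift over all tested genes was also small, from -0.021 to 0.0035 on the log2 scale. How many of those genes kept their direction was not counted. The log2 fold of tetur20g01160 ran from 5.21 to 5.69 in the 3 fits, and that of tetur28g01250 from -3.99 to -3.60.

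The genes whose pattern was most like that of tetur20g01790, the gene with the most reads, were tetur01g01500 and tetur12g01820. Likeness was the Euclidean distance of log2(CPM + 1) over the 4 libraries, each gene centred on its own mean, among 10496 genes. The distance was 0.055 for tetur01g01500 and 0.098 for tetur12g01820, beside a median of 1.33. The gene tetur01g01500 had 10.3 CPM in the proterosoma and 22.6, 23.3 and 32.2 CPM in whole-body replicates 1, 2 and 3, and its log2 fold was -1.32 (edgeR adjusted p = 0.00327). The gene tetur12g01820 had 409.4 CPM in the proterosoma and 828.6, 779.4 and 1094 CPM in whole bodies, with a log2 fold of -1.14 (edgeR adjusted p = 0.00477). Both were highest in replicate 3 among whole bodies, as tetur20g01790 was. The choice by likeness over these same 4 libraries all but fixes that peak and the folds, which are therefore no separate result. With only 4 libraries many genes come close: 1328 lay within a distance of 0.5. Neither identifier could be given a name.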

How the data were processed

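Strand-specific libraries were sequenced from total RNA, per the labels' protocols. The deposited count table holds whole-number counts of reads per gene, not normalised. The submitters' processing notes name the tools STAR 2.5.0b, HTSeq 0.6.0 and DESeq2 1.6.3. Not given in the sources used here are the build, the annotation, the strand setting and the treatment of multiply mapped reads. Reads of near-identical family copies, and of overlapping or antisense genes, may thus have been split or lost, so the value of each copy is uncertain to that extent. The authors also deposited a comparison table with, per the file headers, a mean normalised signal, log2 fold changes with errors, a score for the test, and p-values before and after adjustment. The number of sample columns left unused was 0.

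Counts were fitted with edgeR 4.0.16 in R 4.3.3 (TMM, expression filter by group, quasi-likelihood test), in 1 model of body part over all 4 libraries and all 13278 genes that passed. The spread came from the whole bodies (2 residual and 3.82 prior degrees of freedom), and the proterosoma library was assumed to vary like one. The standard error is the log2 fold divided by the square root of F. The fit was also run on simulated data in which few genes changed and the proterosoma varied like a whole body. That run does not show how the fit behaves here, where most tested genes were called. CPM used TMM-scaled library sizes. Counting intervals are exact conditional binomial; they cover counting error only, since reads carry no molecular identifiers. Alternatives were 3 scalings, 2 filters, DESeq2 1.42.0, limma-voom (limma 3.58.1), glmTreat, an adjusted p of 0.01 and leaving out each whole body in turn. The members, lists and tests were chosen with earlier results of these data known. All 8 genes are named, plus the 2 nearest in pattern to the one with the highest mean CPM. The RefSeq gene table matched 0 of the identifiers, so no other family member, marker, gene length or sequence was used. The share of reads assigned to no gene is unknown, as the table has no such lines.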

Additional observations from a re-analysis of the deposited data

How the results depend on the processing

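Of 145 values recomputed under the alternatives, 130 held: the sign and the call for a fold, 1.5 times for a count or a coefficient of variation, and 1 SD for a sum. The uncalled gene tetur19g02300, at a log2 fold of 0.020, stood at -0.56 with library size alone and -0.018 with the filter of at least 1 count, and between -0.077 and 0.17 with a whole-body library left out. With library size alone the summed log2 ratio of the 8 genes was -1.58. The log2 fold of tetur13g04550 was -1.31 with the DESeq2 Wald test and -1.17 with limma-voom, and in neither was it called; the cause was not tested. With the filter of a mean count of at least 50 that gene was not tested. Against a 2-fold change (glmTreat), which asks for more than a difference from 0, tetur13g04550 (-1.29), tetur19g03360 (0.96), tetur20g01790 (-1.22) and tetur44g00140 (-1.39) were not called, leaving 1 higher and 2 lower of the 8, where 3730 (28.1%) of all tested genes were higher and 3317 (25.0%) lower. The median coefficient of variation of the 8 genes over whole bodies, recomputed after seeing the data, ran from 13.0% to 23.3% with a whole-body library left out, lowest without replicate 3, against 27.0% with all 3. No paired analysis was possible with 1 proterosoma library, and only whole bodies have replicate numbers. Depth limits tetur12g04671 and tetur13g04550 through 8 and 19 proterosoma reads, and tetur20g01160 through 4 to 19 whole-body reads. The proterosoma itself was not replicated.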

Other observations

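The genes beside the intradiol dioxygenases did not share their direction throughout. Up to 2 tested genes on either side were taken by the serial number in the identifier, without an annotation to check that order. Untested identifiers in between were skipped, so those after tetur13g04550 lay 13 and 15 identifiers away. Of these 32 neighbours, 17 were higher in the proterosoma library, 10 were lower and 5 were not called (edgeR adjusted p under 0.05), where 41.0% of all tested genes were higher and 40.4% lower. For the 7 called dioxygenases, 13 of 28 neighbours moved the same way and 10 the opposite way, counts not tested against those shares. Beside tetur20g01160, with a log2 fold of 5.48, 3 neighbours were higher and 1 was lower, with log2 folds from -2.56 to 4.85. Beside tetur12g04671, which fell, 3 were higher and 1 was lower, and their median log2 fold was 3.47. Beside tetur20g01790, which also fell, 1 was higher and 3 were lower, with a median of -2.05. Beside tetur28g01250 there were 2 of each. For tetur13g04550, 1 was higher, 1 lower and 2 not called, and for tetur44g00140, 2 were higher, 1 lower and 1 not called. Next to tetur19g03360, 2 were higher and 2 not called, and next to the uncalled tetur19g02300, 3 were higher and 1 lower.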
